A study of Mus musculus with 12 samples.

Results

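The transmitter receptor subunit genes are the genes for the proteins that bind glutamate, GABA, glycine and acetylcholine at the neuronal surface. They were taken by symbol from the deposited table: every row named as an AMPA, kainate, NMDA or metabotropic glutamate receptor subunit, a GABA-A (Gabr symbols) or GABA-B subunit, a glycine receptor subunit, or a nicotinic or muscarinic acetylcholine receptor subunit, which gave 70 of 30740 genes. By class these were 4 AMPA, 5 kainate, 7 NMDA and 8 metabotropic glutamate genes, 18 GABA-A and 2 GABA-B genes, 5 glycine receptor genes, and 16 nicotinic and 5 muscarinic genes. The series profiled polyA RNA of ventral spinal cord cells from CB6F1/J mouse embryos at E12.5 that carried Hb9:GFP, a reporter driven by the promoter of the motor neuron gene Mnx1 (Hb9). GFP-positive cells were sorted from control embryos (5 libraries) and Arhgap35 knockout embryos (5 libraries), and GFP-negative cells gave 1 library of each genotype. Arhgap35 encodes the GTPase-activating protein p190. Controls were littermates, labelled as wild type although the protocol allows heterozygous p190+/- embryos among them. The protocol says that cord regions were pulled before dissociation, read here as pooled over embryos, and the labels do not say whether replicate numbers stand for separate litters. The p-values therefore measure the spread between these libraries, which may be technical in part.

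Ionotropic receptors are ion channels built from several subunits, and the choice of subunit sets the kinetics, ion selectivity and drug response of the channel, whereas metabotropic glutamate, GABA-B and muscarinic receptors signal through G proteins. In the embryonic spinal cord, acetylcholine, glutamate, GABA and glycine drive spontaneous activity before mature circuits have formed, and GABA and glycine are then often depolarizing because neurons hold chloride at a high level. Developing motor neurons carry receptors for each of these transmitters and themselves release acetylcholine.

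Library totals ran from 23.7 to 33.8 M estimated counts, so that a floor of 3 counts corresponded to 0.0890 to 0.127 CPM (estimated counts scaled by TMM library sizes). Arhgap35 itself lay at 135 to 202 CPM in control and 88.2 to 106 CPM in knockout GFP-positive libraries, a log2 fold change of -0.83 (adjusted p = 0.0240, edgeR), and at 155 CPM (control) and 96.3 CPM (knockout) in GFP-negative cells. The labels call all samples motor neurons, including the GFP-negative ones. The 9 motor neuron markers summed to 1649 to 2134 CPM in GFP-positive libraries against 69.6 and 64.7 CPM in the GFP-negative libraries. By contrast, 8 progenitor markers summed to 74.0 to 197 CPM against 1459 and 1651 CPM, and 11 interneuron markers to 16.7 to 95.3 CPM against 491 and 429 CPM. The GFP-negative libraries therefore held progenitor and interneuron transcripts and little motor neuron signal. Markers of glia and neural crest summed to 25.9 to 58.9 CPM against 425 and 500.3 CPM, of sensory neurons to 16.9 to 37.9 against 150 and 135, of endothelium to 1.83 to 14.0 against 7.57 and 10.05, of erythroid cells to 2.50 to 27.8 against 112 and 152, of mesenchyme to 2.50 to 13.6 against 28.2 and 28.5, and of microglia to 0.615 to 2.91 against 10.1 and 9.22. Knockout library 2 held the highest endothelial, erythroid and mesenchymal sums among GFP-positive libraries.

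Most receptor subunit genes were measured in both populations. Of the 70 genes, 57 passed the filter on low counts in the comparison of GFP-positive with GFP-negative cells and 56 in the comparison of genotypes. The remaining 13 stayed under 10 counts in every library: Chrna6, Chrna9, Chrna10, Chrnb3, Chrnd, Chrne and Chrng among the nicotinic genes, Gabrd, Gabrp, Gabrr1 and Gabrr3 among the GABA genes, Glra4, and Grm6. Gabrd, the delta subunit of extrasynaptic GABA-A receptors, gave 52.86 counts summed over the 10 GFP-positive libraries and 0 in both GFP-negative libraries. Scaled by library size, that is 3.82-fold a floor of 3 counts over the GFP-negative group. Chrng, the subunit of the fetal muscle nicotinic receptor, gave 27.99 counts against 0, or 2.02-fold that floor. Gabrd exceeded 3 counts in 8 and Chrng in only 2 of the 10 GFP-positive libraries. These ratios are no firm lower bounds, since an exact 0 may be a failed estimate. Chrna9 gave 0 counts in the 10 GFP-positive libraries and 3 counts in the GFP-negative libraries.

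Levels between genes were compared per length, with the deposited TPM, which scale counts by transcript length. Gabbr1, which encodes the agonist-binding GABA-B subunit, was the most abundant of the 70 genes in GFP-positive libraries, at 471 ± 16.6 TPM (mean ± SD, n = 10), and its range did not touch that of the next gene. Gria2 (145 ± 15.3 TPM), the AMPA subunit whose edited form blocks calcium entry, Chrna4 (127 ± 7.97 TPM) and Grik5 (118 ± 2.79 TPM) followed, and neighbours among these overlapped in range. After a gap came Gria4 (91.3 ± 6.87 TPM), Glra2 (87.6 ± 9.56 TPM) and Chrnb2 (84.3 ± 3.10 TPM), whose ranges overlapped. Each of glutamate, GABA, glycine and acetylcholine thus had at least 1 receptor gene among these. At the other end of the tested genes, Chrna1, the muscle alpha subunit, averaged 0.361 TPM and Chrm1 0.317 TPM.

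**Figure D1:**
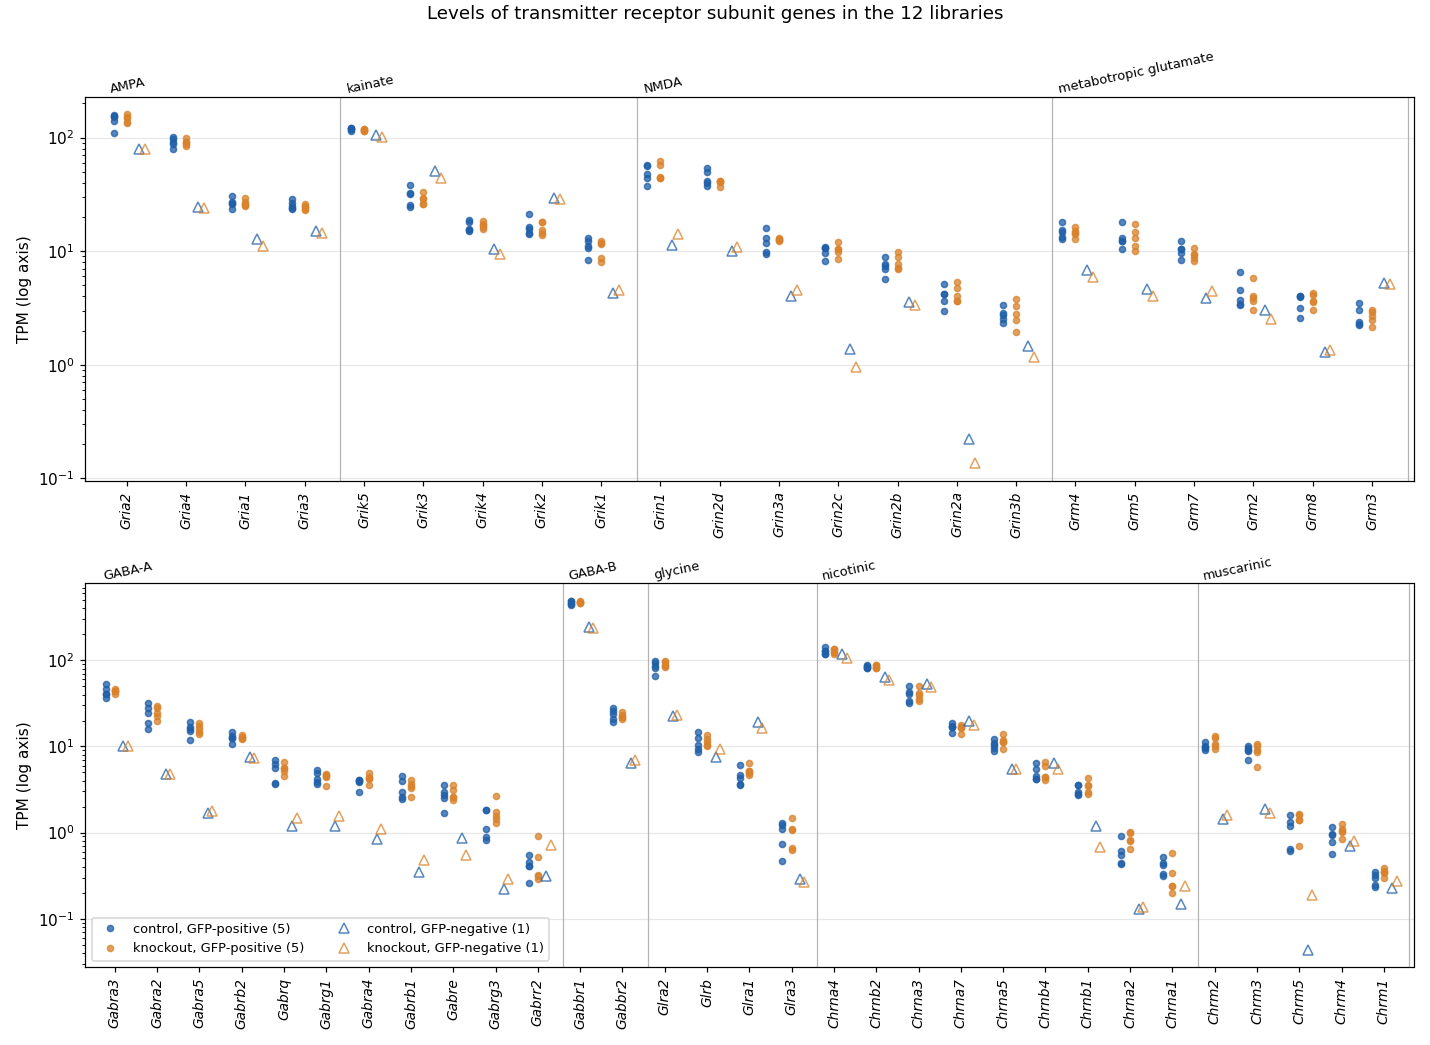
TPM of 53 of the 57 tested receptor genes (log axis) by receptor class, one point per library, with filled circles for GFP-positive and open triangles for GFP-negative libraries, control in blue and knockout in orange. Gabbr1 stands above the rest at 443 to 492 TPM in GFP-positive libraries. The circles of the genotypes are drawn side by side and lie at similar heights.

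The first comparison asked which receptor genes marked Hb9:GFP-positive cells against the remaining ventral cord cells, with genotype as a covariate. GFP-negative cells had only 1 library per genotype. The SEs and p-values between sorts therefore assume that these vary like the GFP-positive libraries. Of the 57 genes tested, 44 were higher and 5 lower in GFP-positive cells at an adjusted p under 0.05 (edgeR quasi-likelihood test, Benjamini-Hochberg), and 8 were not called. Over all 19763 genes tested, 30.1% were called higher and 31.8% lower. The median log2 fold change (GFP-positive over GFP-negative) was 1.28 over the receptor genes and 0.02 over all genes. A rise of at least 1 on the log2 scale was called for 34 receptor genes, against 12.4% of all genes. Every GFP-positive library lay above both GFP-negative libraries in 44 of the 57 genes, the same 44 that were called higher. That separation was seen in 29.2% of all genes tested. In 4 of the 57 (Grik2, Grik3, Grm3 and Glra1) every GFP-positive library lay below both others, against 31.6% of all genes. Chrna3, the other gene called lower, overlapped. Separation and call use the same values, so the separation lends the calls no further support. Whether more cells carry a receptor RNA or each cell holds more of it cannot be told apart in these bulk libraries. A list of 10 pan-neuronal genes, chosen after values were seen, also summed higher in GFP-positive cells, at 11156 to 12155 CPM against 7427 and 7278 CPM. The part of neuron content in the receptor results was not tested.

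**Figure D2:**
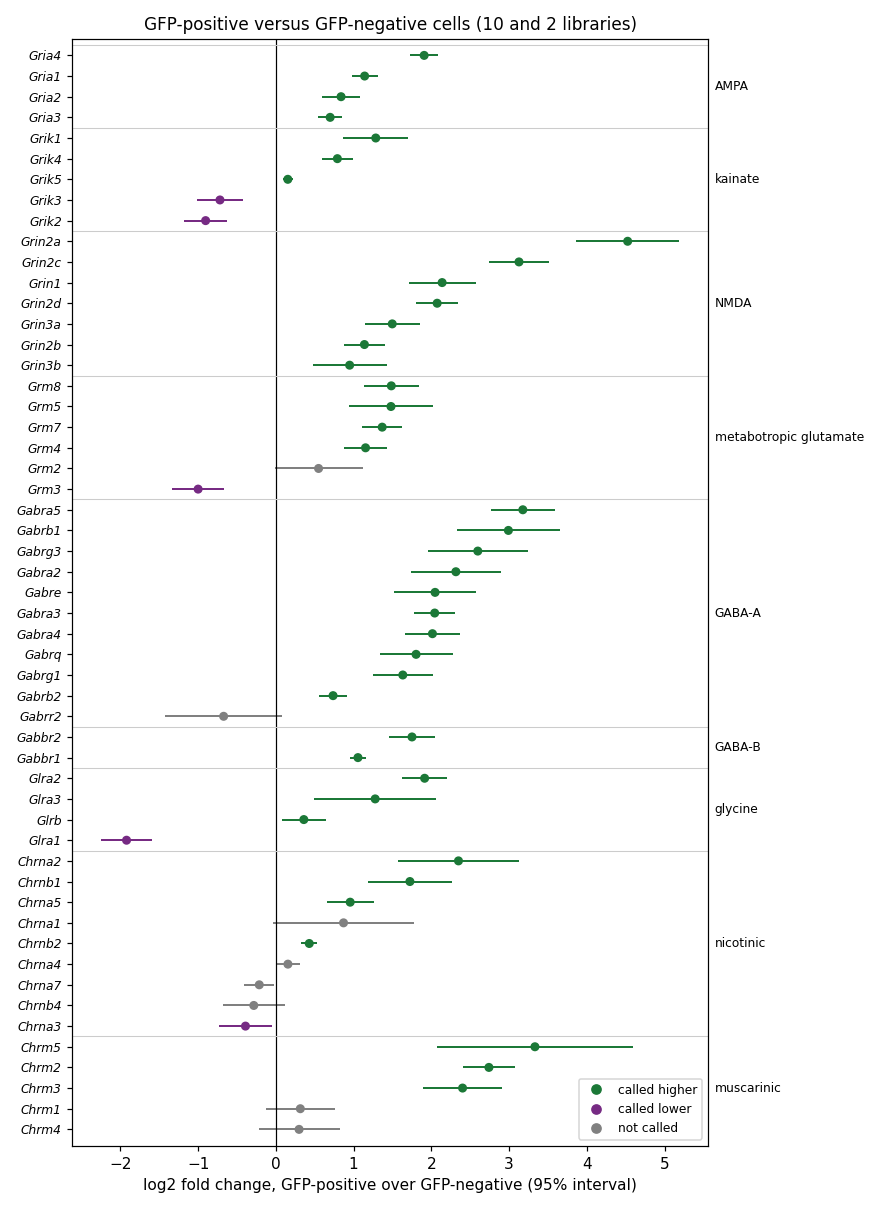
Log2 fold change of GFP-positive over GFP-negative cells (x axis) with 95% intervals for 53 of the 57 tested receptor genes, grouped by class. Green marks 40 genes called higher, purple 5 called lower and grey 8 not called. Grin2a is farthest right at 4.52 and Glra1 farthest left at -1.92.

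Sequence just upstream of the start site is shown for 5 genes called higher in GFP-positive than in GFP-negative cells, Gria4 with the smallest p of the set and 1 gene each of the NMDA, GABA-A, glycine and muscarinic classes (the muscarinic one, Chrm5, at a low level in both). The windows hold the 250 bases before the RefSeq start (GRCm38.p6, read 5′ to 3′ on the gene's strand) and overlap no annotated exon: chr9:4796235-4796484 (minus strand) for Gria4, chr11:115267244-115267493 (minus) for Grin2c, chr7:57510060-57510309 (minus) for Gabra5, chrX:165327394-165327643 (minus) for Glra2 and chr2:112480818-112481067 (minus) for Chrm5. Capitals mark matches on either strand to TAATTA, the core bound by many homeodomain factors, CAGATG, an E-box, TTCAGCACC, a core of the element bound by the repressor REST, or GGGCGG, the GC box.
Gria4: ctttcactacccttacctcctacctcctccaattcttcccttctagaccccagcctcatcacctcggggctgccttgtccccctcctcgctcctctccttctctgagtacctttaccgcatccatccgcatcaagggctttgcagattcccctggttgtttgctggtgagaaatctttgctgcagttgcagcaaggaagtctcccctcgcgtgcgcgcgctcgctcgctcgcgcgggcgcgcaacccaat
Grin2c: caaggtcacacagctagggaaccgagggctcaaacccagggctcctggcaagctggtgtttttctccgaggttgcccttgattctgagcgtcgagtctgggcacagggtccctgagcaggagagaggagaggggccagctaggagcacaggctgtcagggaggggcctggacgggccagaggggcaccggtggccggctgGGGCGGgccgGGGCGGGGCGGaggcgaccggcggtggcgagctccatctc
Gabra5: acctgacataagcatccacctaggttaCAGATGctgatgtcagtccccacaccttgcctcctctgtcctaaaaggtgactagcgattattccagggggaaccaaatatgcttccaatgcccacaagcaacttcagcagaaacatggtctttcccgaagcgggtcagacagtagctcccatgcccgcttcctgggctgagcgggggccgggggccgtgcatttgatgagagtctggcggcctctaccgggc
Glra2: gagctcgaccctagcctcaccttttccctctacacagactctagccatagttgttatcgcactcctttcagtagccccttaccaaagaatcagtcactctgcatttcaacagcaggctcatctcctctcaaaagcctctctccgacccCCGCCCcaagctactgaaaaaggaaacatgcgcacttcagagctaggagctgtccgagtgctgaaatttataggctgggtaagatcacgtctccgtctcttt
Chrm5: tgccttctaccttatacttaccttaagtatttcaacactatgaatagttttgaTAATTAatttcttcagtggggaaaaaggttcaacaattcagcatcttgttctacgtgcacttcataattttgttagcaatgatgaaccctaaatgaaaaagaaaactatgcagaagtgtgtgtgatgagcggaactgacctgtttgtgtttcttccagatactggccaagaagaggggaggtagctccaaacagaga
Grin2c held 3 matches to GGGCGG, 2 of them overlapping by 1 base. Glra2 held 1 on the other strand, Gabra5 held 1 CAGATG and Chrm5 held 1 TAATTA. The Gria4 window held none of the 4 motifs. Windows were found for 51 of the 70 genes (59 windows, since some genes have several starts). GGGCGG occurred in 28 of these 59 (47.5%) and in 32.7% of 32851 windows of all genes, while the median GC content was 59.2% and 52.4%. TAATTA occurred in 5.08% against 4.84% of windows, CAGATG in 5.08% against 14.4%, and TTCAGCACC in 1.69% (1 window) against 0.301%. A match describes letters in a window and is not evidence of binding.

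AMPA receptors carry fast glutamatergic transmission, and all 4 genes were higher in GFP-positive cells. Gria4, whose product forms fast-gating channels, ranged from 129.7 to 163 CPM (median 149) in the 10 GFP-positive libraries and stood at 38.1 CPM (control) and 40.4 CPM (knockout) in the GFP-negative ones, a log2 fold change of 1.91 (SE 0.0814, adjusted p = 5.34e-10). Gria2 ranged from 265 to 383 CPM (median 353) against 190.4 and 195 CPM, a log2 fold change of 0.84. Neither gene overlapped between the sorted populations. Gria1 rose by 1.14 and Gria3 by 0.70 on the log2 scale. Summed over the class, TPM was 287 ± 31.7 in control and 288 ± 17.3 in knockout GFP-positive libraries (n = 5 each) against 132 and 129 in the GFP-negative libraries. The make-up of that sum differed as well: Gria4 contributed 32.0% ± 1.22 in control GFP-positive libraries and 18.6% and 18.7% in the GFP-negative libraries, and Gria2 49.8% ± 2.21 against 60.3% and 61.5%.

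NMDA receptors need glutamate and the co-agonist glycine or serine, and their 7 genes were each called higher, their median log2 fold change being 2.07. Grin1, the obligatory subunit, ranged from 59.4 to 95.9 CPM (median 74.9) against 18.6 and 17.7 CPM in the GFP-negative libraries, a log2 fold change of 2.14 (SE 0.195, adjusted p = 1.90e-06). Its annotated exons share 1307 bases (13.5%) with the antisense gene Grin1os, and an unstranded kit cannot separate such reads. Among the GluN2 subunits, which set channel kinetics, Grin2a ranged from 5.96 to 11.1 CPM (median 8.51) against 0.440 and 0.292 CPM. Its log2 fold change was 4.52 (SE 0.308, adjusted p = 2.85e-08), at a low level, and 2.12 on the log2(TPM + 1) scale. Grin2c ranged from 15.8 to 23.2 CPM (median 20.5) against 2.64 and 1.84 CPM, a log2 fold change of 3.13. Grin2d, a subunit of slowly deactivating channels known from immature neurons, ranged from 67.7 to 100.6 CPM (median 76.6) against 18.5 and 19.2 CPM, a log2 fold change of 2.07. Per length Grin2d was the main GluN2 gene throughout, at 67.4% ± 2.84 of summed GluN2 TPM in control GFP-positive libraries and 65.9% and 71.1% in the GFP-negative libraries. Grin2a took 6.11% ± 1.01 against 1.46% and 0.883%, whereas Grin2b took 11.1% ± 1.18 against 23.5% and 21.8%. The remaining genes Grin2b, Grin3a and Grin3b rose by 0.95 to 1.50. Exons of Grin3b share 32.1% of their bases with Tmem259 on the other strand and those of Grin2d 9.66% with Gm45441, so part of their counts is uncertain.

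Kainate receptors, which modulate release and excitability, were divided between directions, with 3 genes higher and 2 lower. Grik5, a high-affinity subunit that forms channels only with a partner, was the most abundant per length but hardly differed, at 190.4 to 203 CPM (median 198) against 180.5 and 174 CPM, a log2 fold change of 0.15 (SE 0.0308, adjusted p = 6.42e-04). That call was lost when only control libraries were used (0.16, adjusted p = 0.0516). Grik3 lay at 95.6 to 149 CPM (median 114) against 204 and 177 CPM and fell by 0.72. Grik2, a channel-forming subunit, lay at 24.5 to 40.3 CPM (median 27.9) against 54.6 and 54.3 CPM and fell by 0.90 (SE 0.129, adjusted p = 4.59e-05). For both genes every GFP-positive library was below both GFP-negative ones. Grik4 rose by 0.79 and Grik1 by 1.28. The class sum hardly moved, at 194 ± 11.2 TPM in control GFP-positive libraries and 202 and 189 TPM in the GFP-negative ones, but Grik2 and Grik3 made up 8.44% ± 1.28 and 15.6% ± 2.12 of it against 14.7% and 15.4%, and 25.5% and 23.4%.

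Metabotropic glutamate receptors fall into group I, which includes Grm5 and couples to phospholipase C, and groups II and III, which inhibit adenylyl cyclase. Of 7 genes tested, 5 were higher, 1 lower and 1 not called. Grm4 and Grm5 were the most abundant per length. Grm4, a group III receptor, ranged from 21.6 to 31.3 CPM (median 25.2) against 12.2 and 10.7 CPM, a log2 fold change of 1.15. Grm5 ranged from 23.8 to 43.8 CPM (median 29.8) against 10.7 and 11.6 CPM, a log2 fold change of 1.48. Grm8 rose by 1.48 and Grm7 by 1.37 (SE 0.118, adjusted p = 2.68e-07). The group II gene Grm3 went the other way, at 3.35 to 5.39 CPM (median 3.95) against 8.30 and 8.18 CPM, and fell by 1.00 (SE 0.155, adjusted p = 6.99e-05). It made up 5.34% ± 0.806 of the class TPM in control GFP-positive libraries and 20.9% and 21.5% in the GFP-negative libraries. Grm2, also group II, had a log2 fold change of 0.55 that was not called (adjusted p = 0.0860) and was called at 0.87 with the replicate number as a block (adjusted p = 0.00339). Both GFP-negative libraries carry number 1, so between sorts that block contrasts them only with GFP-positive libraries of the same number.

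Receptor partners showed a similar split by gene. In the list of 31 AMPA, kainate and NMDA auxiliary subunits and postsynaptic scaffold proteins, 24 were higher, 6 lower and 1 not called, with a median log2 fold change of 0.66. Cnih3, an AMPA receptor auxiliary protein, rose by 2.63 from 3.39 and 2.96 CPM to 17.4 to 22.8 CPM, and Shisa6, another AMPA auxiliary protein, by 1.66. Neto1, an auxiliary subunit of kainate receptors, rose by 2.01 while its relative Neto2 fell by 0.68. The scaffold genes Homer3, Dlg1, Homer1 and Dlg3 and the AMPA auxiliary gene Cacng7 were the other genes called lower.

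GABA-A receptors are pentameric chloride channels, and 13 of the 14 genes tested were higher in GFP-positive cells (median log2 fold change 1.91). Gabrr2, a subunit found mainly in retina, was not called and stood at 0.163 to 0.364 CPM against 0.271 and 0.584 CPM. The alpha subunits set much of the drug response. Gabra5 ranged from 12.6 to 20.4 CPM (median 17.3) against 1.83 and 1.95 CPM, a log2 fold change of 3.18 (SE 0.192, adjusted p = 1.02e-08). Gabra3 ranged from 58.3 to 83.2 CPM (median 68.4) against 16.6 and 17.0 CPM, a log2 fold change of 2.04, and Gabra4 rose by 2.01. Summed alpha TPM was 89.0 ± 14.8 in control GFP-positive libraries against 18.0 and 18.5 in the GFP-negative libraries. Within that sum Gabra3 held 49.1% ± 3.35 against 55.7% and 55.3%, Gabra2 26.3% ± 3.34 against 26.5% and 25.9%, and Gabra5 17.8% ± 0.837 against 9.31% and 9.61%. Among the other subunits, Gabrb1 rose by 2.99, Gabrg3 by 2.60, Gabra2 by 2.31, Gabre by 2.05, Gabrq by 1.80, Gabrg1 by 1.63 and Gabrb2 by 0.73.

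GABA-B receptors work as a dimer of Gabbr1 and Gabbr2. Gabbr1 ranged from 659.8 to 748 CPM (median 711) against 344 and 336 CPM, a log2 fold change of 1.06 (SE 0.0476, adjusted p = 8.76e-10). Gabbr2, the subunit that couples to the G protein, ranged from 47.4 to 68.8 CPM (median 56.8) against 16.5 and 17.7 CPM, a log2 fold change of 1.75. Per length Gabbr1 made up 95.2% ± 0.672 of the pair in control GFP-positive libraries and 97.4% and 97.2% in the GFP-negative libraries. The KCTD proteins that attach to GABA-B receptors were also higher, Kctd8 by 2.34, Kctd16 by 2.10 and Kctd12 by 1.36.

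Glycine receptors are chloride channels of alpha subunits with or without the beta subunit Glrb, and their alpha genes moved in opposite directions. Glra2, the alpha subunit of fetal tissue, ranged from 90.5 to 134.9 CPM (median 120.5) against 31.6 and 32.4 CPM, a log2 fold change of 1.91 (SE 0.133, adjusted p = 9.68e-08). Glra1, the alpha subunit of adult spinal cord, ranged from 3.68 to 6.65 CPM (median 5.02) against 20.2 and 17.6 CPM and fell by 1.92 on the log2 scale (SE 0.150, adjusted p = 1.01e-07). Every GFP-positive library was above both GFP-negative ones for Glra2 and below both for Glra1. Of summed alpha TPM, Glra1 made up 4.99% ± 1.06 in control and 5.47% ± 0.776 in knockout GFP-positive libraries and 45.4% and 41.3% in the GFP-negative libraries. Glrb, which binds the scaffold gephyrin, lay at 10.5 to 15.1 CPM (median 12.6) against 9.69 and 10.4 CPM, so that its lowest GFP-positive library stood just above the higher GFP-negative one. Its call (log2 fold change 0.36, adjusted p = 0.0285) was lost without either GFP-negative library (adjusted p = 0.163 and 0.132). Glra3, at 0.619 to 1.37 CPM against 0.460 and 0.325 CPM, was called at 1.28 (adjusted p = 0.00744) and lost with the replicate number as a block (0.79, adjusted p = 0.121) and without the knockout GFP-negative library (1.05, adjusted p = 0.107).

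Among 11 partners of GABA and glycine receptors, 9 were higher, 1 lower and 1 not called. Gphn, which encodes gephyrin, rose by 0.80. The chloride exporter gene Slc12a5 (KCC2) lay at 137 to 179 CPM against 55.3 and 48.6 CPM and rose by 1.57, while the importer gene Slc12a2 (NKCC1) lay at 38.0 to 44.2 CPM against 46.2 and 45.2 CPM and fell by 0.14 (adjusted p = 0.0431).

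**Figure D3:**
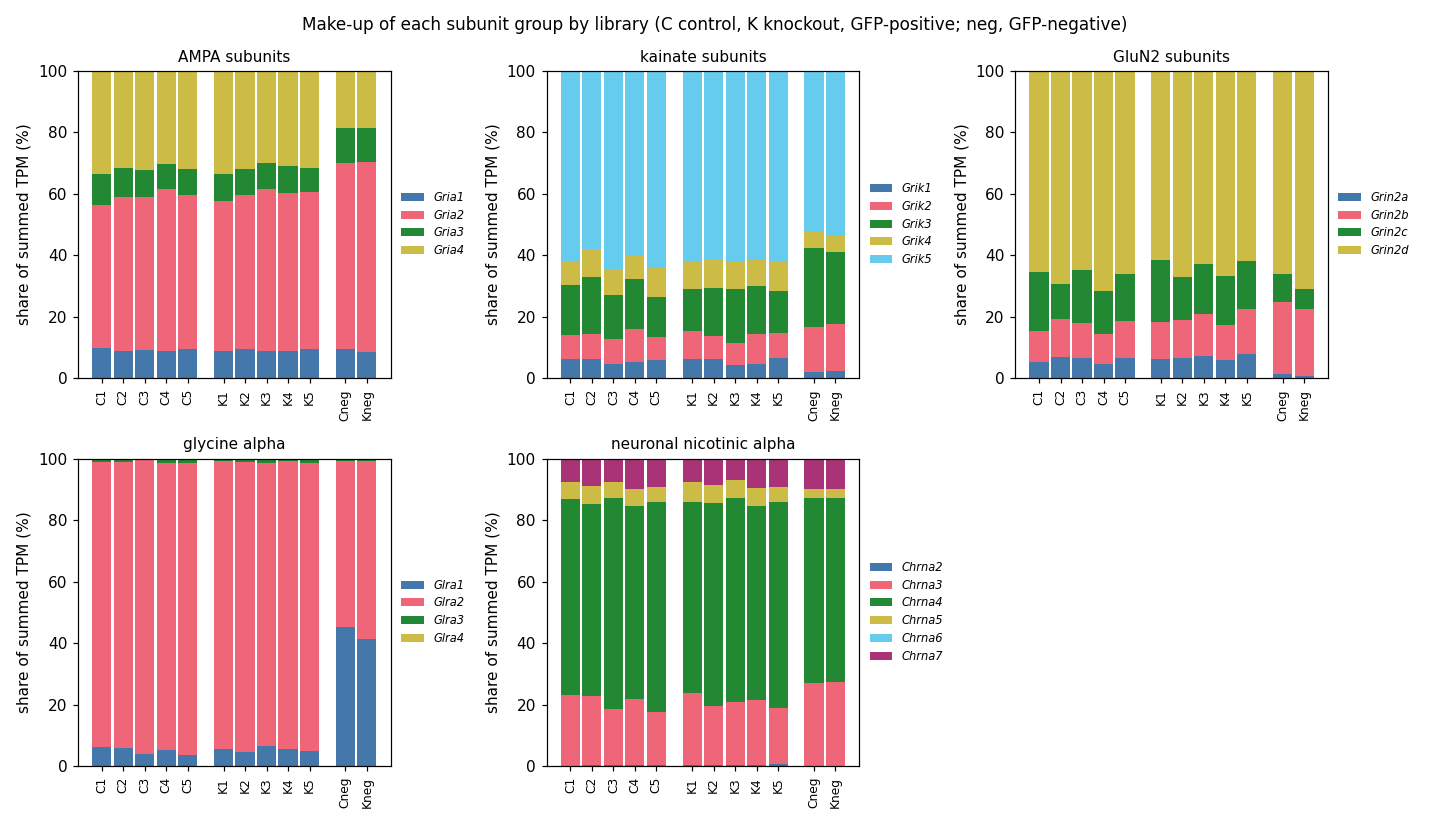
Share of each subunit group's summed TPM held by each gene (y axis, percent) in each library (x axis; C1 to C5 control and K1 to K5 knockout GFP-positive, Cneg and Kneg GFP-negative). Glra1 takes 3.73% to 6.63% of glycine alpha TPM in GFP-positive libraries and 45.4% and 41.3% in the GFP-negative ones, and Gria4 takes 30.1% to 33.6% of AMPA TPM against 18.6% and 18.7%.

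Nicotinic receptors are the acetylcholine-gated channels. Of 9 genes tested, 4 were higher, 1 lower and 4 not called, with a median log2 fold change of 0.43. Chrna4 and Chrnb2 form the common heteromeric neuronal receptor and were the most abundant nicotinic genes per length. Chrna4 ranged from 226 to 277 CPM (median 249) and the GFP-negative libraries, at 234 and 211 CPM, lay within and just below that range. Its log2 fold change of 0.15 was not called (adjusted p = 0.0801), but it was called at 0.27 with the replicate number as a block (adjusted p = 0.00108), and also without control library 2 or 4 or knockout library 4 (0.17 to 0.18). Chrnb2 ranged from 189 to 209 CPM (median 199) against 152 and 143 CPM, a log2 fold change of 0.43 (SE 0.0462, adjusted p = 2.23e-06), with 16.3% of its exonic bases shared with Adar on the other strand. Summed over the class, TPM was 287 ± 17.0 in control GFP-positive libraries against 269 and 245 in the GFP-negative libraries.

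Chrna5, Chrna3 and Chrnb4 lie side by side on chromosome 9 (GRCm38), with Chrna5 at 54980880-55007779, Chrna3 at 55010111-55026562 and Chrnb4 at 55028154-55048779, and their products can join in one receptor. Chrna5 ranged from 10.8 to 16.4 CPM (median 12.7) against 6.67 and 6.55 CPM, a log2 fold change of 0.96 (SE 0.140, adjusted p = 4.03e-05). Chrna3 ranged from 43.7 to 67.8 CPM (median 53.4) against 73.9 and 67.4 CPM and had a log2 fold change of -0.39 (adjusted p = 0.0425). That call was lost with the replicate block (-0.07, adjusted p = 0.578) and held in 10 of the 26 settings tried, and was lost without either GFP-negative library, without control library 2, 3 or 4 and without knockout library 2, 3, 4 or 5. Chrnb4 had a log2 fold change of -0.28 and was not called (adjusted p = 0.197). The homomeric receptor gene Chrna7 had a log2 fold change of -0.21, not called as such (adjusted p = 0.0533) and called lower in 6 of the 26 settings: with the replicate block (-0.21, adjusted p = 0.0378), DESeq2, DESeq2 size factors, library size scaling, no genotype term, and without control library 4.

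The muscle-type nicotinic genes were low. Chrnb1, the muscle beta subunit, ranged from 1.69 to 2.91 CPM (median 2.10) against 0.678 and 0.657 CPM and rose by 1.72. Chrna1 had a log2 fold change of 0.87 that was not called (adjusted p = 0.0900), and Chrnd, Chrne and Chrng fell under the filter. Skeletal muscle markers summed to 4.50 to 5.60 CPM in GFP-positive and 4.05 and 3.55 CPM in GFP-negative libraries, and their part in these values was not tested. Chrna2 ranged from 0.667 to 1.56 CPM (median 1.11) against 0.203 and 0.218 CPM, a log2 fold change of 2.35.

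Muscarinic receptors are the G protein-coupled acetylcholine receptors, and 3 of 5 genes were higher. Chrm2, an inhibitory Gi-coupled receptor, ranged from 18.9 to 27.8 CPM (median 22.0) against 3.56 and 3.07 CPM, a log2 fold change of 2.74 (SE 0.157, adjusted p = 6.34e-09). Chrm3, which couples to Gq, ranged from 6.93 to 12.1 CPM (median 10.1) against 2.10 and 1.68 CPM, a log2 fold change of 2.40. Chrm5, also Gq-coupled, ranged from 0.464 to 1.28 CPM against 0.0339 and 0.146 CPM, both together resting on 5 counts, a log2 fold change of 3.33 (95% interval 2.07 to 4.59). This value was 2.78 without the control and 4.40 without the knockout GFP-negative library. Chrm1 and Chrm4 were not called. Of 6 genes tested for acetylcholine receptor assembly and clustering, 4 were higher, 1 lower and 1 not called. Lynx1, a membrane-anchored modulator of nicotinic receptors, rose by 3.43, and Lrp4, the agrin receptor, fell by 3.28 on the log2 scale.

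The transmitter supply genes give the setting of these receptors. Of 16 genes for transmitter synthesis, packaging and uptake, 5 were higher and 10 lower. Chat, which makes acetylcholine, rose by 6.26, and the genes for GABA synthesis (Gad1, fell by 3.29), glycine uptake (Slc6a5, fell by 3.52) and vesicular glutamate uptake (Slc17a6, fell by 2.12) were lower. Receptor genes for glutamate (19 of 23 tested higher, 3 lower) and GABA (15 of 16 higher) were thus high in cells in which the RNAs for making or loading those transmitters were low.

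The second comparison, knockout against control in GFP-positive cells, asked whether loss of Arhgap35 changed receptor RNA. Of 56 receptor genes tested, 0 were called (edgeR quasi-likelihood test, Benjamini-Hochberg), against 6 of 17487 genes (0.0343%) in all. At an unadjusted p under 0.05 there was 1 receptor gene, Chrna2, against 2.14% of all genes. DESeq2 called 0 receptor genes, 0 of them at an unadjusted p under 0.05. Knockout and control libraries overlapped in each of the 56 genes, while they did not overlap in 0.532% of all genes tested. The median log2 fold change (knockout over control) was 0.02 over the receptor genes and 0.00 over all genes, and the values ran from -0.34 (Chrna1) to 0.52 (Chrna2), with 35 above and 21 below 0.

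The intervals below come from the fit without the replicate number as a block and bound how large a difference that fit could have missed. With the block the SE was smaller for most of these genes (Grin1 0.0433 against 0.139). It was larger for a few (Chrm1 0.202 against 0.171). The 95% interval lay within a 1.5-fold change either way for 48 of the 56 genes and within 2-fold for 54, with a median half-width of 0.27 on the log2 scale. The 2 genes whose interval reached past 2-fold were Chrna2 (0.02 to 1.02) and Chrm5 (-0.33 to 1.01). For abundant genes the bound was tight: Gabbr1 had a log2 fold change of -0.01 (-0.09 to 0.08), Chrnb2 of 0.00 (-0.08 to 0.08) and Grik5 of -0.04 (-0.10 to 0.02). Grik5 lies 8.39 Mb from Arhgap35 on chromosome 7, the nearest of the 8 receptor genes on that chromosome.

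Chrna2, a neuronal nicotinic alpha subunit, stood at 0.679, 0.941, 1.43, 0.854 and 0.667 CPM in control libraries 1 to 5 and at 0.993, 1.25, 1.52, 1.23 and 1.56 CPM in knockout libraries 1 to 5. The groups overlapped through control library 3, and the log2 fold change of 0.52 (SE 0.230) had an unadjusted p of 0.0438 and an adjusted p of 1.00 (edgeR). With the replicate number as a block the unadjusted p was 0.0227 and the adjusted p 0.900. That block gave 4 genes at an unadjusted p under 0.05 in place of 1 (Chrna2, Grin2d, Chrna5 and Gabra4). It called 0 of the receptor genes, against 2 higher and 3 lower of all 17487 genes. The share of all genes at an unadjusted p under 0.05 was not counted in the blocked fit. The 4 genes therefore have no background to be set against.

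Subunit shares were set side by side without a test. Glra1 made up 4.99% ± 1.06 and 5.47% ± 0.776 of glycine alpha TPM in control and knockout, Gria4 32.0% ± 1.22 and 31.6% ± 1.25 of AMPA TPM, and Gabra5 17.8% ± 0.837 and 17.7% ± 1.46 of GABA-A alpha TPM (n = 5 each), differences smaller than the SDs. Within the GluN2 group Grin2d made up 67.4% ± 2.84 in control and 64.0% ± 2.67 in knockout libraries, and Grin2b 11.1% ± 1.18 and 12.9% ± 1.29, differences larger than the SDs with libraries that overlapped between genotypes. Paired by replicate number, the Grin2d share in knockout libraries 1 to 5 was 61.5%, 67.0%, 62.9%, 66.6% and 61.8% against 65.5%, 69.2%, 64.8%, 71.5% and 65.97% in the controls, lower in all 5 pairs. The Grin2b share was higher in all 5 pairs, at 12.1%, 12.6%, 13.7%, 11.4% and 14.6% against 10.1%, 12.3%, 11.3%, 9.71% and 12.2%. The Grin2d and Grin2b shares were chosen after their values were seen, and shares of one sum are not independent. The pattern was not limited to the GluN2 group. In knockout the Grm7 share of metabotropic glutamate TPM was also lower in all 5 pairs (mean 18.8% against 20.3%). Higher in all 5 pairs were Chrna5 among neuronal nicotinic alpha genes (5.85% against 5.33%) and Gabrg3 among GABA-A gamma genes (1.83% against 1.37%). How many of all shares kept one direction was not counted. None of the 4 lists of partner, assembly and supply genes had a member called between genotypes (edgeR, 31, 11, 6 and 16 genes tested). Of the 31 glutamate receptor partners, 2 had an unadjusted p under 0.05 (Homer2 and Shank3), against 2.14% of all genes tested.

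**Figure D4:**
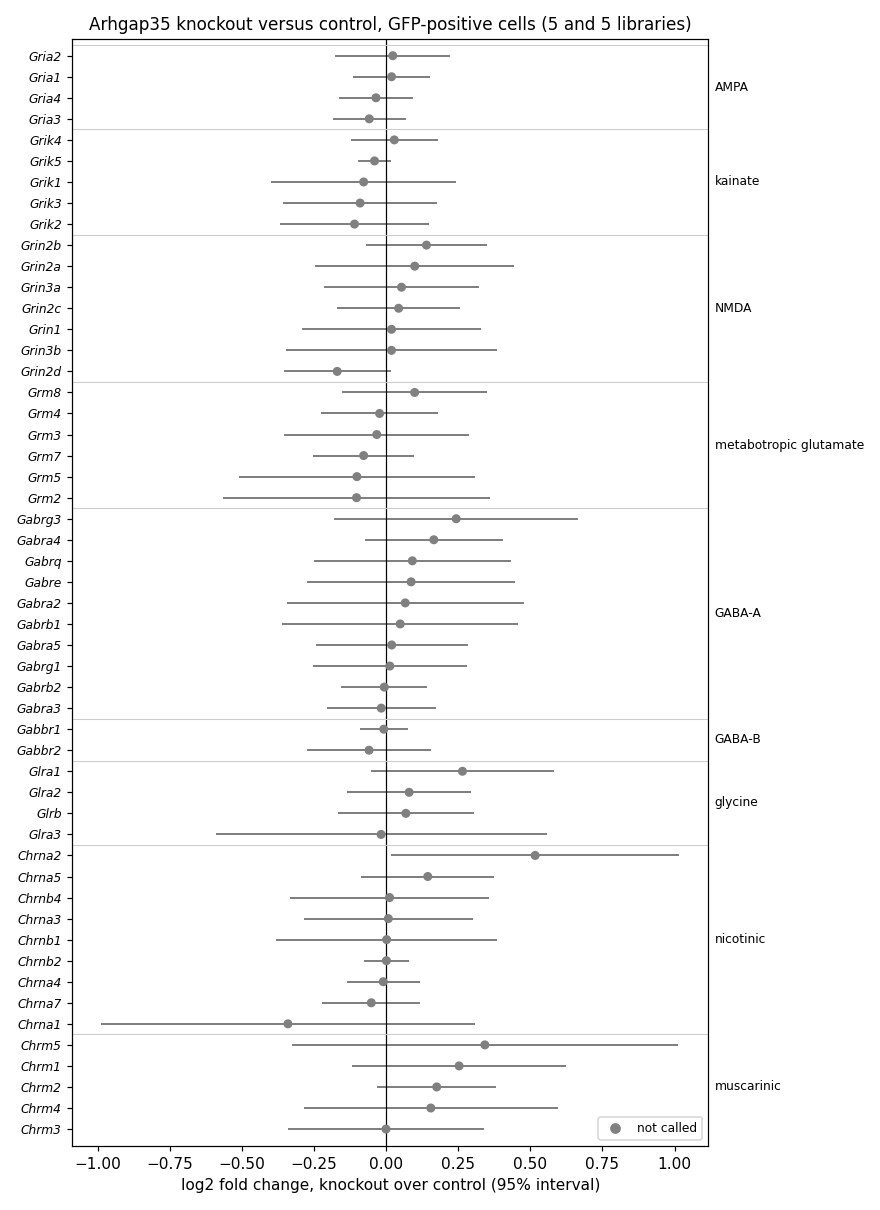
Log2 fold change of knockout over control in GFP-positive cells (x axis) with 95% intervals for 52 of the 56 tested receptor genes, grouped by class, none of them called. Points lie between -0.34 and 0.52, and intervals are widest for the low genes Chrm5 and Chrna1.

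The third comparison asked whether the knockout effect differed between GFP-negative and GFP-positive cells. With 1 GFP-negative library per genotype, it assumes that these vary like the replicated groups. Of 57 genes, 0 were called against 0.0253% of all genes, and 0 had an unadjusted p under 0.05 against 1.78%. DESeq2 likewise called 0, with 0 at an unadjusted p under 0.05. The smallest p belonged to Grin2c, at 20.5 CPM (median) in GFP-positive libraries and 2.64 and 1.84 CPM in control and knockout GFP-negative libraries, with a difference in log2 fold change (GFP-negative minus GFP-positive) of -0.58 (SE 0.301, adjusted p = 1.00, edgeR). Gabrr2 followed at 1.09 (SE 0.671) and Grm7 at 0.34 (SE 0.208).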

How the data were processed

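RNA-seq of 12 libraries was used, 10 of GFP-positive and 2 of GFP-negative cells, made with the TruSeq v2 kit, which does not mark strand, and read as 50-base single ends, per the labels. The authors deposited estimated counts for each gene symbol, without scaling, made with kallisto on mm10 per the submitters' processing notes; its version and the step from transcripts to symbols were not stated. The authors also deposited TPM, whose columns sum to 974800 to 1018240, a rescaling that no label explains.

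Here the estimated counts were rounded to whole numbers. After filterByExpr and TMM scaling, each comparison was fitted in edgeR 4.0.16 (R 4.3.3) by quasi-likelihood with the robust option. Adjusted p-values are Benjamini-Hochberg values over every gene fitted, called at 0.05. The code was tested on simulated data. Genotypes were compared in the 10 GFP-positive libraries, sorts in all 12 with genotype as a covariate, and the difference of genotype effects with 4 group means. Levels are CPM on TMM library sizes; levels between genes use TPM. Positions come from GENCODE M21 (GRCm38), upstream windows from RefSeq (GRCm38.p6). An exact 0 in the tables may be a failed estimate.

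The genes and lists were chosen with earlier results of these data known. Values are given for the 2 genes of highest TPM in each class, up to 4 called per direction with the smallest p, and, for genotype and interaction, those with an unadjusted p under 0.05 or the 3 with the smallest p; other genes named with values were chosen after these were seen. Besides the cell type markers, 4 lists of receptor partners, assembly factors and transmitter supply genes were used. Libraries of the same replicate number in both genotypes correlated in their deviations from group means (r of 0.225 to 0.474, against at most 0.154 for other pairs), so the numbers pair the libraries and a fit with the number as a block was run. No label says what the number stands for. Both GFP-negative libraries carry number 1, so between sorts the block sets them against only the GFP-positive libraries of that number. Replicates were not duplicates (chi-square per degree of freedom 7.92 to 24.3). Alternatives were other scaling, filters, DESeq2 1.42.0, limma 3.58.1 on log2 TPM (pseudocounts 1 and 0.1), robust fitting off, the block, all 12 libraries, either genotype alone, no genotype term and each library left out. No column was left unmatched. Some genes are not reported here by name.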

Additional observations from a re-analysis of the deposited data

Results flagged for a closer look

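Of 80 groups of 5 GFP-positive libraries (40 named genes in each genotype), 4 had 1 library far from the other 4 by Dixon's test, and chance alone sets apart about 1 in 20 groups. Grik2 stood at 40.3 CPM in control library 4, against 25.9 to 29.1 CPM in the other controls. Gabra4 stood at 5.33 CPM in control library 1, against 7.17 to 7.32 CPM. Grin2d stood at 67.7 CPM in knockout library 1, against 76.1 to 77.3 CPM in the other knockouts, and Glra1 at 6.65 CPM in knockout library 3, against 4.94 to 5.38 CPM.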

How the results depend on the processing

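The number of receptor genes called stayed close to the values given under every alternative run: 42 to 46 higher and 4 to 6 lower in GFP-positive cells over 26 settings, and 0 between genotypes and 0 in the interaction. Of the genes called between sorts, 41 of 44 higher and 4 of 5 lower were called the same way in every setting. The exceptions were Grik5 (called in 25 settings), Glra3 (23), Glrb (18) and Chrna3 (10). The replicate block gave 45 higher and 5 lower. With it Glra3 and Chrna3 were lost, Chrna4, Grm2 and Chrna7 were gained, and no other call changed. Its fold changes between sorts rest on the libraries numbered 1, since both GFP-negative libraries carry that number. They are therefore no check over all 12 libraries. Glrb was also lost with library size scaling (0.31, adjusted p = 0.0574) and on log2 TPM, and Chrna4 (higher) was gained in 5 and Chrna7 (lower) in 6 settings; the cause was not tested. A pseudocount of 1 on TPM shrank the fold changes of low genes by construction, by more than 1.5-fold for 7 named genes that stayed called, that of Grin2a to 2.12. Leaving out 1 GFP-negative library left 1 to set the level of that population, which is then assumed to vary like the others, and the interaction could not be fitted without either. Scaling by library size or DESeq2 size factors moved the median of all genes by less than 0.1 on the log2 scale. The 13 genes under 10 counts were not tested in the main fits. Some alternatives without that filter or on log2 TPM did test them between sorts. There Gabrd was called higher in 4, Chrng higher in 2 and Chrna9 lower in 2 of the 26 settings, all on very low counts.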
